A study of Mus musculus with 16 samples.

Results

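Lamin A domains of wild-type (WT) cardiac myocytes are described here as the islands of at least 100 kb on chromosomes 1 to 19 in 5 deposited lists, 1 for each of 5 lamin A libraries (WT 1 to WT 5, build GRCm39). The rule took 1846 islands of the 4089 intervals in those lists, with 382, 665, 183, 281 and 335 in WT 1, WT 2, WT 3, WT 4 and WT 5. It left out 752 shorter autosomal intervals and 1491 intervals on chromosomes X and Y. Length and chromosome chose the islands, and score and significance did not. The series holds 16 libraries of cardiac myocytes taken from mouse hearts with the Langendorff method, among them 5 lamin A and 5 IgG libraries of WT mice and 6 END-seq libraries of double-strand breaks. The IgG and END-seq libraries were not analysed here. All 5 lamin A libraries are labelled wild type, and their labels name no Cre and no altered Lmna allele. Nothing in the labels gives sex or age, or says whether the 5 came from separate animals, so their spread may be technical. Interval lists hold no expression values, so the labelled cell type could not be checked against marker genes.

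Lamin A is a filament protein of the nuclear lamina, the meshwork under the inner nuclear membrane, and is encoded by Lmna together with lamin C. Chromatin that touches this meshwork forms lamina-associated domains (LADs), long stretches that are mostly poor in genes, late to replicate and silent. Mutations of LMNA cause dilated cardiomyopathy in people, and in myocytes the lamina also links the nucleus to the contractile cytoskeleton. Unlike the peak of a transcription factor, a LAD is broad and shallow, so it is called by joining many small windows into an island and comparing its reads with a control.

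The signal within these islands was shallow. The score of an island is the log2 ratio of its lamin A reads to control reads scaled to the same depth. Its median was 0.0968, 0.0951, 0.179, 0.177 and 0.141 in WT 1, WT 2, WT 3, WT 4 and WT 5, a mean of 0.138 ± 0.041 (SD, n = 5). As a linear ratio these medians were 1.07, 1.07, 1.13, 1.13 and 1.10, where 1 would be no enrichment. A score under 0.1 was found in 52.4%, 54.1%, 25.7%, 28.8% and 37.0% of the islands of WT 1 to WT 5. A score of at least 0.5 was reached by 14 of the 1846 islands, 9 in WT 3, 4 in WT 4, 1 in WT 5 and none in WT 1 or WT 2. WT 1 and WT 2 thus had the lowest medians and WT 3 and WT 4 the highest, and the scores of all 5 libraries overlapped. The upper quartiles were 0.134, 0.131, 0.292, 0.291 and 0.205 in WT 1 to WT 5.

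The score is not explained in the lists and was read from its values. The score and the −log10 p of an interval fix a number of lamin A reads if the p is the upper tail of a Poisson distribution whose mean is the scaled control. Among 945 intervals under 1200 bp, where few read numbers are possible, a whole number of reads gave the deposited −log10 p within 0.01% in all with log base 2 and in none with base e or base 10. The same held with base 2 for all 4076 intervals whose p was not capped, although in large intervals 1 read more or less moves p by as little as that tolerance. The control reads that follow were also whole within 0.1 in all 1275 intervals under 500 lamin A reads that had a control read. The reads below are these implied reads. They are not stated by any source, and the lists do not say which library served as control. The integer score of the same files was 100 times the log2 score, cut to a whole number, in all 4089 intervals.

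Depth differed between the libraries and sets how precisely a score is known. Islands below the cap held 11126874, 5622525, 1683284, 4913630 and 8569651 implied lamin A reads in WT 1, WT 2, WT 3, WT 4 and WT 5, sums that also depend on the length covered. The median island had 14552 reads in WT 1 and 3919 in WT 3, and the median density was 9.83, 10.6, 1.96, 4.60 and 9.97 reads per kb in WT 1 to WT 5. WT 3 and WT 4 had the lowest densities and the highest median scores, and the part of depth in that order was not tested. The counting error of a score, from lamin A and control reads together, had a median of 0.0157, 0.0297, 0.0354, 0.0281 and 0.0180. The scores varied more than that between islands, with SDs of 0.0569, 0.0536, 0.170, 0.125 and 0.0900. WT 3 was the thinnest library, and 16 of its islands had less than 50% of its median lamin A density, against 1, 0, 3 and 0 islands in WT 1, WT 2, WT 4 and WT 5.

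The deposited p takes the control as known without error. When the counting error of the control reads was included, the 95% interval of the score held 0 in 31, 136, 30, 28 and 19 islands of WT 1 to WT 5, or 8.12%, 20.5%, 16.4%, 10.1% and 5.83% of those below the cap. These intervals cover counting error only.

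The islands covered 1111, 524, 859, 1135 and 966 Mb in WT 1, WT 2, WT 3, WT 4 and WT 5, and held 99.8%, 98.4%, 99.8%, 99.8% and 99.8% of the covered autosomal length. The 752 shorter autosomal intervals thus added between 2.08 and 8.51 Mb per library. Median island length was 1.51, 0.535, 1.87, 1.87 and 1.41 Mb, a mean of 1.44 ± 0.55 Mb (SD, n = 5). The N50 length, at which islands of that length or longer hold 50% of the covered sequence, was 5.86, 1.27, 13.5, 8.83 and 6.22 Mb. Islands of at least 10 Mb numbered 19, 0, 21, 24 and 16 and held 29.2%, 0%, 56.8%, 45.1% and 31.8% of the covered length. WT 2 stood apart as a list of many short islands, and its longest island spanned 5.41 Mb where those of the other libraries spanned 42.2 Mb or more.

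The islands next to the length limit had mixed scores. The shortest islands taken measured 104, 101, 104, 102 and 102 kb in WT 1 to WT 5, with scores of 0.137, 0.135, 1.05, 0.275 and 0.207. The longest intervals left out measured 98.4, 99.8, 95.2 and 97.2 kb in WT 1 to WT 4 and 1 bp less than 100 kb in WT 5, with scores of 0.327, 0.152, 0.454, 0.455 and 0.101.

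Gaps between successive islands fell into a short and a long class. The shortest gap between any autosomal intervals was 40.2 kb in each of the 5 libraries, and starts and lengths came in steps of 200 bp, so no list separates windows that lie nearer than that. Gaps under 100 kb made up 60.6%, 42.4%, 45.1%, 58.8% and 56.3% of the gaps in WT 1, WT 2, WT 3, WT 4 and WT 5. Gaps of at least 1 Mb made up 26.4%, 32.5%, 39.0%, 27.9% and 29.1%, and held between 94.9% and 98.2% of the gap length. Gaps of 100 kb to 1 Mb were the least common class in all 5 libraries, at 12.9%, 25.1%, 15.9%, 13.4% and 14.6%. The median gap of 68.0, 191, 271, 75.0 and 77.1 kb fell in the short class in WT 1, WT 4 and WT 5 and in this middle class in WT 2 and WT 3. Gaps between islands can hold intervals under 100 kb. Between all autosomal intervals the median gap was 75.4, 153, 109, 90.5 and 87.7 kb in WT 1 to WT 5.

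**Figure D1:**
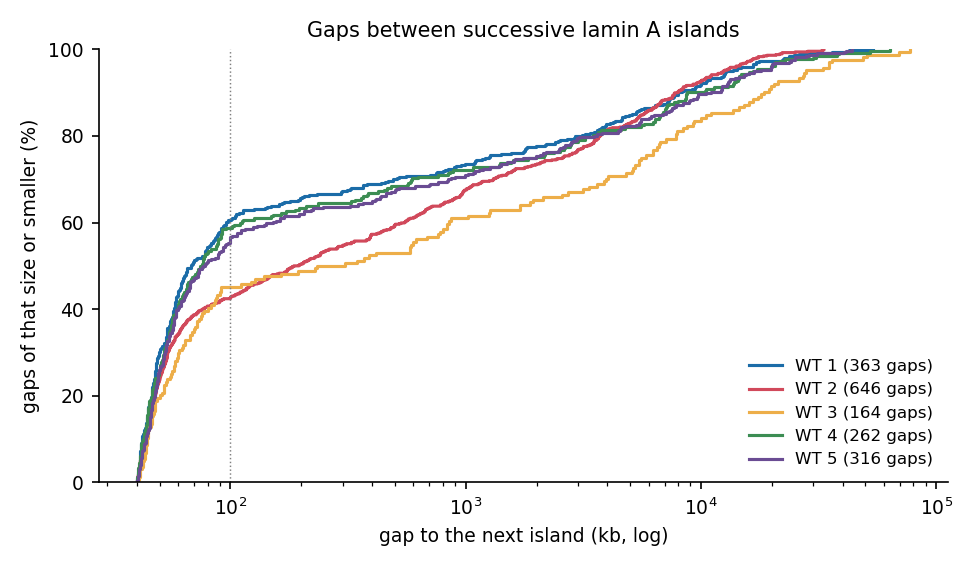
Cumulative share of gaps between successive islands of at least 100 kb (y axis, percent) against gap size (x axis, kb, log scale) for the 5 WT lamin A libraries, with a dotted line at 100 kb. All curves start at about 40.2 kb, climb steeply to between 42.4% and 60.6% at 100 kb, flatten, and climb again above 1 Mb.

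Many short gaps overlapped a short gap of another list. Of the gaps under 100 kb in WT 3, 93.2% overlapped a gap under 100 kb of at least 1 other library, and 70.3% did so in 3 or more others. For WT 4, WT 5 and WT 1 the shares with at least 1 other library were 79.9%, 66.9% and 56.8%, and for WT 2 the share was 18.6%. Gaps under 100 kb numbered 220, 274, 74, 154 and 178 in WT 1 to WT 5. These shares therefore depend on list length too, and no share for randomly placed gaps was computed. In WT 2, 84.3% of the short gaps lay wholly inside an island of some other library. At 21 places all 5 lists had such a gap, with a median of 48.8 kb open in every list. On chromosome 10, from 35544001 to 35602600 (GRCm39), the gap measured 59.4, 62.6, 60.2, 59.4 and 58.6 kb in WT 1, WT 2, WT 3, WT 4 and WT 5. On chromosome 14, from 110291001 to 110348400, it measured 58.6, 69.8, 58.4, 60.6 and 58.0 kb, and on chromosome 12, from 92804601 to 92859600, it measured 55.4, 73.0, 56.4, 57.2 and 56.6 kb. These 3 places were chosen after their values were seen. No annotation or sequence of this build was used, so what lies in the gaps is not stated.

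The longest gaps spanned large parts of a chromosome. They measured 53.8 Mb on chromosome 17 in WT 1 (40198201 to 93967000), 33.3 Mb on chromosome 18 in WT 2, 77.1 Mb on chromosome 11 in WT 3 (43175601 to 120252400), 63.9 Mb on chromosome 14 in WT 4 (15570801 to 79435800) and 43.8 Mb on chromosome 16 in WT 5 (3212801 to 46983600). No chromosome held the longest gap of more than 1 library. The smaller of the gaps beside an island was weakly related to its score, with Spearman's rho of 0.0132, -0.196, -0.0409, -0.0721 and -0.0889 across 344, 627, 145, 243 and 297 islands of WT 1 to WT 5.

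Longer islands had lower scores in each library. Spearman's rho between score and length was -0.486, -0.494, -0.643, -0.457 and -0.367 in WT 1, WT 2, WT 3, WT 4 and WT 5, across the islands of 1 library, which share its depth and control. The median score of islands of at least 1 Mb was 0.0784, 0.0624, 0.130, 0.143 and 0.113, against 0.120, 0.106, 0.286, 0.251 and 0.173 for islands of 100 kb to 1 Mb. The difference averaged -0.082 ± 0.050 (SD, n = 5) and was below 0 in 5 of 5 libraries (exact sign-flip permutation test over libraries, two-sided, p = 0.063, adjusted p = 0.063 over 2 tests, the smallest that 5 libraries allow). Shorter intervals had higher scores again. Islands of at least 100 kb had medians of 0.0968, 0.0951, 0.179, 0.177 and 0.141, against 1.04, 0.458, 2.82, 3.09 and 1.21 for autosomal intervals under 100 kb. That difference averaged -1.59 ± 1.12 (SD, n = 5; 5 of 5 libraries below 0; exact sign-flip permutation p = 0.063, adjusted p = 0.063). The shorter intervals had median lengths of 4.70, 16.7, 1.70, 0.499 and 0.599 kb in WT 1 to WT 5. With few reads, an interval is listed only at a high ratio. Calling thus favoured this sign in advance, and the test cannot separate the difference from the calling threshold.

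The calling threshold moved with length too. The lowest score in the lists was 0.0462, 0.0454, 0.110, 0.0757 and 0.0533 among islands of 100 kb to 500 kb, 0.0202, 0.0208, 0.0558, 0.0498 and 0.0223 among those of 500 kb to 2 Mb, and 0.0102, 0.0184, 0.00922, 0.00761 and 0.00631 among those of 2 Mb or more, in WT 1 to WT 5. The lowest called score thus fell with length in each library. The top of the range fell with length as well. The highest score was 0.177, 0.160, 0.340, 0.432 and 0.340 in the longest class, against 0.296, 0.403, 1.07, 0.643 and 0.504 in the shortest. The median counting error of the score was 0.0389 to 0.119 over the libraries in the shortest class, against 0.00920 to 0.0212 in the longest. The 1.07 of WT 3 rested on 38 implied reads. The part of counting error in these highest scores was not tested. Among islands of at least 1 Mb alone, where the threshold was lower, rho was -0.375, -0.134, -0.444, -0.374 and -0.258. The part of the threshold in the relation was not tested.

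**Figure D2:**
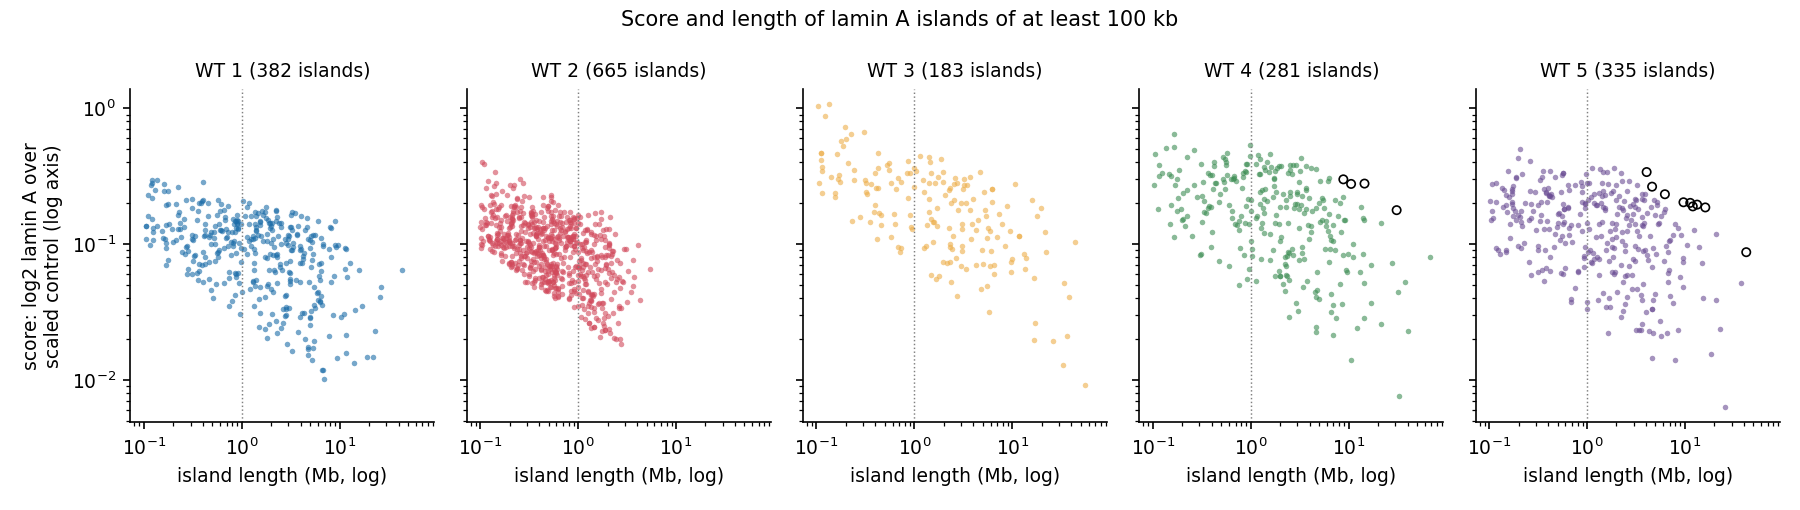
Score (y axis, log2 of lamin A over scaled control, drawn on a log axis) against island length (x axis, Mb, log scale), 1 point per island and 1 panel per WT lamin A library, with a dotted line at 1 Mb and open black circles for islands at the cap of −log10 p. The clouds slope downwards in all 5 panels, their lower edge falls with length, and WT 2 has no island beyond 5.41 Mb.

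Significance ran the other way. The median −log10 p was 10.6, 5.47, 8.78, 22.1 and 20.1 in WT 1, WT 2, WT 3, WT 4 and WT 5, and its rho with length was 0.469, 0.327, 0.470, 0.401 and 0.490. From islands of 100 kb to 500 kb, through 500 kb to 2 Mb, to 2 Mb or more, the median −log10 p was 4.70, 12.2 and 23.3 in WT 1, 4.14, 7.50 and 10.9 in WT 2, 3.79, 9.96 and 18.7 in WT 3, 6.72, 23.9 and 39.3 in WT 4 and 7.44, 20.1 and 53.9 in WT 5. Over the same 3 classes the median score fell, for instance from 0.123 to 0.110 and 0.0667 in WT 1 and from 0.236 to 0.221 and 0.119 in WT 4. Long islands were thus called on many reads at a low ratio, with medians of 42633, 26157, 10681, 20727 and 38563 implied reads in islands of 2 Mb or more.

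The extremes of each list show both ends of this range. The longest islands of WT 1, WT 4 and WT 5 lay on chromosome 5 and ended at nearly the same place. They ran from 49921001 to 93434599 in WT 1 with a score of 0.0650, from 26335801 to 93431999 in WT 4 with 0.0806, and from 51194601 to 93435199 in WT 5 with 0.0873. In WT 1 that island held 437729 implied reads, so its 95% counting interval was 0.0594 to 0.0706. The longest island of WT 2 lay on chromosome 8 from 58347601 to 63759199, with a score of 0.0661 (95% counting interval 0.0481 to 0.0841). The longest of WT 3, on chromosome 1 from 115415001 to 170856399, was also its weakest, with a score of 0.00922 and an interval of -0.00342 to 0.0219.

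The weakest islands of the other 4 libraries also spanned megabases. They lay on chromosome 3 from 49438401 to 56420399 in WT 1, with a score of 0.0102, and on chromosome 4 from 13048401 to 15779399 in WT 2, with 0.0184. In WT 4 the weakest lay on chromosome 8 from 72634601 to 105576199, with 0.00761, and in WT 5 on chromosome 1 from 48349601 to 73868199, with 0.00631. The 95% counting intervals of all 5 weakest islands included 0. The WT 1 island shared no base with an island of any other library, whereas that of WT 2 was covered by all 4 others along its whole length.

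The strongest islands were short. In WT 1 the highest score, 0.296 (95% counting interval 0.195 to 0.398), was on chromosome 10 from 106078801 to 106216599, and in WT 2 it was 0.403 (0.268 to 0.538) on chromosome 5 from 78065801 to 78170399. In WT 4 it was 0.643 (0.468 to 0.818) on chromosome 9 from 93329201 to 93492999, and in WT 5 it was 0.504 (0.417 to 0.591) on chromosome 2 from 39811001 to 40019599. These 4 were covered by 3 or more of the other libraries. The highest score of WT 3, 1.07 on chromosome 7 from 9078401 to 9212199, rested on 38 implied reads, with an interval of 0.230 to 1.92, and was covered by no other library.

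The cap of 500 on −log10 p was reached by 4 islands in WT 4 and 9 in WT 5, or 1.42% and 2.69% of their islands, and by 0 islands in WT 1, WT 2 and WT 3, whose highest values were 192, 58.0 and 167. Columns 8 and 9, the p and its adjusted value, were capped at the same islands. The 13 were long, from 8.83 to 30.9 Mb in WT 4 and from 4.06 to 42.2 Mb in WT 5, with scores of 0.178 to 0.300 and 0.0873 to 0.340. Each of the 4 in WT 4 overlapped one of the 9 in WT 5, at 1 place on chromosome 1, 1 on chromosome 15 and 2 on chromosome 16. One such place lay on chromosome 15 from 10824201 to 21417599 in WT 4, with a score of 0.278, and from 10816401 to 20469999 in WT 5, with 0.203. WT 3 had its most significant island there, with a −log10 p of 167 and a score of 0.277. Another place differed between the lists. The capped WT 5 island on chromosome 1 from 138841601 to 150162199, with a score of 0.201, lay in the weakest island of WT 3, with a score of 0.00922 and a −log10 p of 1.74. In WT 4 the island there had a score of 0.0230 and a −log10 p of 11.2. At 12 of the 13 places all 4 other libraries covered at least 50% of the island, and at the other, the long island of chromosome 5 in WT 5, 3 did.

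Islands found again in other libraries were more significant, and in most libraries they scored higher. Recurrence was taken as the mean number of the other 4 libraries that cover the bases of an island, from 0 to 4. Its median was 2.99, 3.99, 3.23, 3.00 and 3.00 in WT 1, WT 2, WT 3, WT 4 and WT 5. Its rho with −log10 p was 0.583, 0.335, 0.625, 0.678 and 0.642, and with score 0.465, 0.229, 0.119, 0.592 and 0.439. With length, rho was between 0.0561 and 0.269. Each library is among the others of the next, so these 5 values are not independent of each other, and no test was made. Without WT 2 among the libraries, the lowest of the 4 remaining rho of score and recurrence was -0.0457, that of WT 3.

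Islands covered for at least 50% by all 4 other libraries numbered 130, 415, 80, 100 and 113, or 34.0%, 62.4%, 43.7%, 35.6% and 33.7% of each list. Those so covered by none numbered 59, 62, 25, 15 and 16. The median score of the first was 0.133, 0.105, 0.248, 0.303 and 0.205, against 0.0528, 0.0624, 0.351, 0.0689 and 0.120 for the second. The fully shared islands thus had the higher median in WT 1, WT 2, WT 4 and WT 5 and the lower in WT 3. The 25 unshared islands of WT 3 had a median length of 0.212 Mb, a median of 152 implied reads and 0.943 lamin A reads per kb, against 2.29 Mb, 4363 reads and 2.01 per kb for its 80 shared ones. The shares of islands covered by all 4 others also depend on covered length, 524 Mb in WT 2 and 859 Mb or more in the rest. No share for randomly placed islands was computed.

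**Figure D3:**
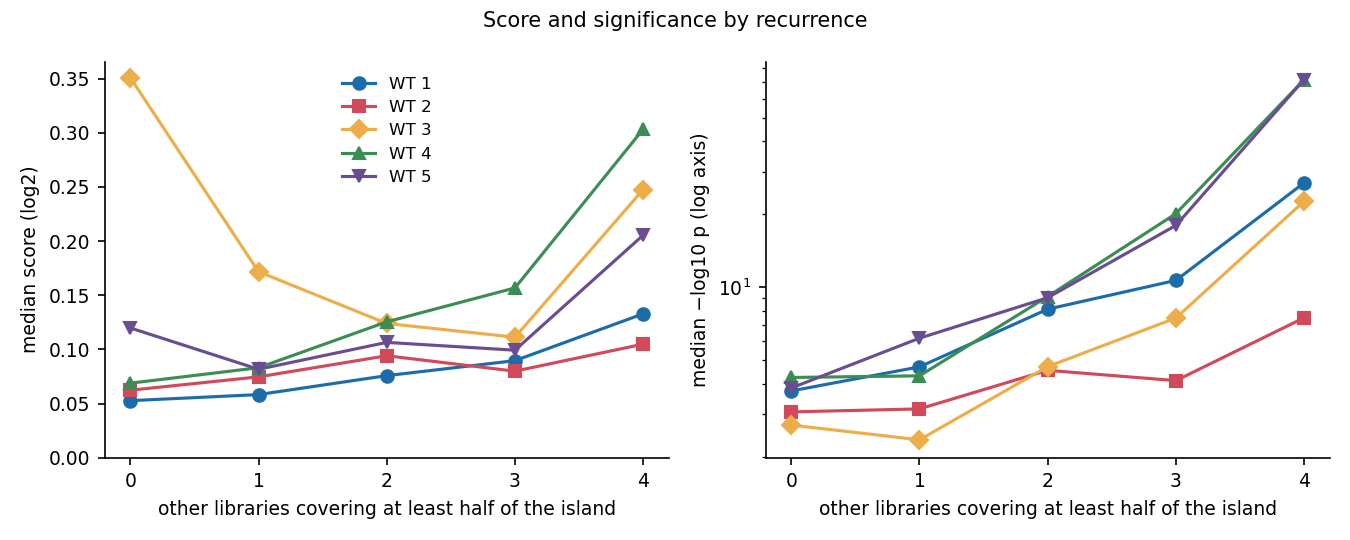
Median score (left, log2) and median −log10 p (right, log axis) of islands by the number of other libraries, 0 to 4, that cover at least 50% of the island (x axis), 1 line per WT lamin A library. Both are highest at 4 in WT 1, WT 2, WT 4 and WT 5, with scores of 0.105 to 0.303 there, whereas the score of WT 3 is highest at 0, at 0.351, and its −log10 p is highest at 4.

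Within classes of length the relation of score and recurrence was tighter for long islands. Among islands of 2 Mb or more, rho was 0.720, 0.374, 0.659, 0.798 and 0.703 in WT 1, WT 2, WT 3, WT 4 and WT 5, and among those of 500 kb to 2 Mb it was 0.617, 0.358, 0.537, 0.714 and 0.573. Among those of 100 kb to 500 kb it was 0.245, 0.193, -0.429, 0.354 and 0.440, so that WT 3 alone turned. In WT 5, for instance, islands of 2 Mb or more that all 4 others shared had a median score of 0.184 (53 islands), against 0.0234 (13 islands) for those shared by 0 or 1 other. In WT 4 the same medians were 0.225 (49 islands) and 0.0369 (21 islands). The median counting error of the score ran from 0.0389 to 0.119 over the libraries at 100 kb to 500 kb. At 2 Mb or more it ran from 0.00920 to 0.0212, and its part in the weaker relation of short islands was not tested.

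The score of a place was also similar between libraries. In 100 kb bins that islands of both libraries covered, rho between the 2 scores was 0.597 on average over the 10 pairs, from 0.327 between WT 2 and WT 4 to 0.809 between WT 3 and WT 4. The 6 pairs without WT 2 had rho of 0.676 to 0.809 over 6924 to 8457 bins, and the 4 pairs with WT 2 had 0.327 to 0.504 over 3416 to 3837 bins. All bins of an island carry its score, so bins are not independent.

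The implied reads split the score into its lamin A and its control reads, and the control varied more closely with it. The Spearman correlation between score and scaled control reads per kb was -0.786, -0.639, -0.761, -0.720 and -0.636 in WT 1, WT 2, WT 3, WT 4 and WT 5. The Spearman correlation between score and lamin A reads per kb was -0.510, -0.240, 0.0999, 0.535 and 0.115, so in WT 1 and WT 2 the islands with higher scores had fewer lamin A reads per kb. In WT 1, the 25% of islands with the highest scores had medians of 9.49 lamin A and 8.48 scaled control reads per kb, against 10.3 and 9.99 in the 25% with the lowest. In WT 4 the same medians were 4.96 and 3.83 in the highest 25%, against 4.50 and 4.33 in the lowest 25%. The score is the ratio of these values, so some relation with each is built in. The log2 density had an SD of 0.152, 0.117, 0.597, 0.205 and 0.182 for lamin A and 0.181, 0.139, 0.713, 0.228 and 0.203 for the control.

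Between libraries, the control density of an island also agreed more than its lamin A density. Over the same bins, without islands at the cap, rho of the scaled control reads per kb was 0.622 on average over the 10 pairs (0.366 to 0.843), and rho of the lamin A reads per kb was 0.210 (-0.140 to 0.567). The control value was the higher of the 2 in all 10 pairs. Between WT 1 and WT 4, for instance, rho was 0.694 for the score, -0.140 for lamin A and 0.726 for the control, and between WT 3 and WT 4 it was 0.809, 0.567 and 0.843. The lists do not say whether the libraries had separate controls. The implied scaling was 0.692, 1.25, 1.13, 1.88 and 0.949 lamin A reads per control read in WT 1 to WT 5. The median scaled control density was 9.13, 9.87, 1.75, 4.10 and 9.03 reads per kb. Whether any libraries shared a control was not tested.

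**Figure D4:**
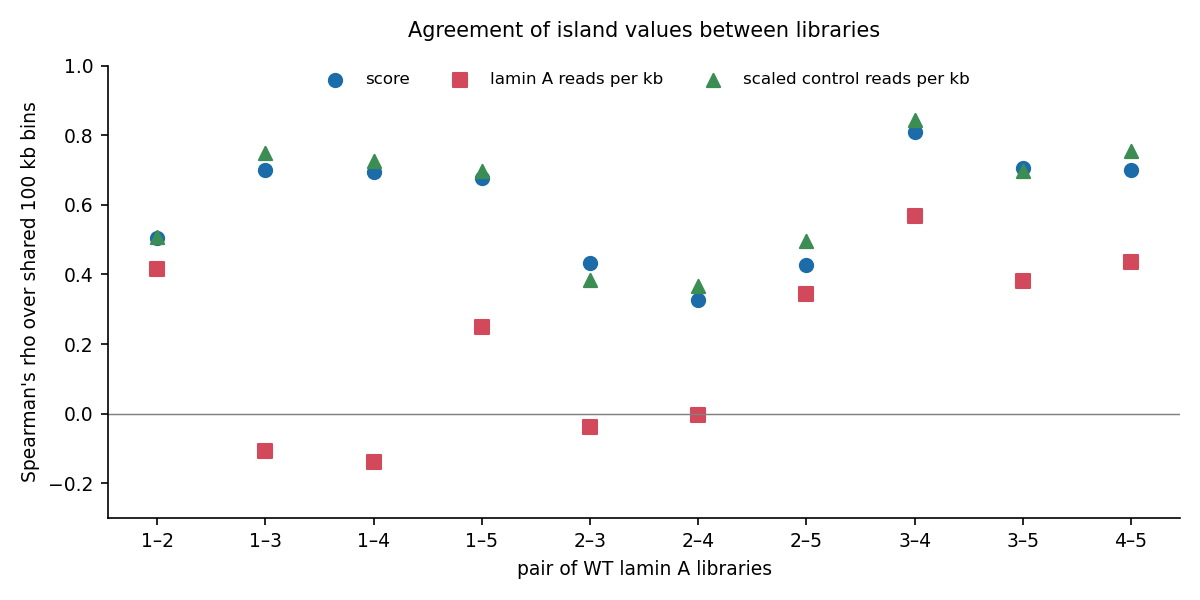
Spearman's rho over 100 kb bins covered in both libraries (y axis) for the 10 pairs of WT lamin A libraries (x axis, library numbers), for score, lamin A reads per kb and scaled control reads per kb. Score and control lie close together in every pair, from 0.327 to 0.843, and lamin A lies below both, from -0.140 to 0.567.

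Bins covered by islands of all 5 libraries numbered 3037, or 304 Mb. Their scores were ranked within each library, and the ranks were averaged over the 5. The longest run of bins in the highest 10% lay on chromosome 16 from 81500001 to 83500000, where the island scores were 0.160, 0.160, 0.192, 0.300 and 0.340 in WT 1, WT 2, WT 3, WT 4 and WT 5. The next were on chromosome 2 from 40200001 to 42000000, with 0.144, 0.130, 0.338, 0.378 and 0.274, and on chromosome 15 from 47200001 to 49000000, with 0.156, 0.107, 0.340, 0.360 and 0.265. The island of chromosome 2 had nearly the same length in each list, 1.94, 1.95, 1.96, 1.96 and 1.95 Mb. The other 2 of the 5 longest runs lay on chromosome 14 from 108500001 to 110100000, with the highest mean rank of the 5, the 94.7th percentile, and on chromosome 15 from 18800001 to 20400000. The island of chromosome 14 measured 1.87, 1.71, 1.87, 1.87 and 1.87 Mb in WT 1 to WT 5, with scores of 0.150, 0.172, 0.421, 0.366 and 0.361. It lies between 2 of the 21 gaps that all 5 lists shared.

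The longest run of bins in the lowest 10% was on chromosome 3 from 8400001 to 11500000, with scores of 0.0291, 0.0387, 0.0716, 0.110 and 0.0317 in WT 1 to WT 5. The next were on chromosome 4 from 93900001 to 96500000 and on chromosome 12 from 6300001 to 8500000, followed by chromosome 4 from 88800001 to 90800000 and chromosome 3 from 140300001 to 142000000. Both runs of chromosome 4 belonged to a single island of 23.2 Mb in WT 1, of 36.5 Mb in WT 3, of 21.6 Mb in WT 4 and of 8.55 Mb in WT 5, with scores of 0.0231, 0.0211, 0.0259 and 0.132. WT 5 thus scored higher there than the others, and WT 2 held 2 separate islands with 0.0201 and 0.0222. Chromosome 2 held 63 bins of the highest 10% and 0 of the lowest 10%, and chromosomes 4, 1 and 8 held 67, 28 and 22 of the lowest and 0 of the highest. Chromosome 3 held 39 of the highest and 103 of the lowest.

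Some chromosomes differed in score in the same direction in all 5 libraries. The median score of the islands of a chromosome was divided by the median of its library. Chromosome 14 had the highest mean, 1.39 ± 0.32 (SD, n = 5), and was above 1 in 5 of 5 libraries, with 1.15, 1.07, 1.58, 1.85 and 1.32 in WT 1 to WT 5. Chromosome 11 had the lowest, 0.592 ± 0.214 (SD, n = 5), with 0.884, 0.720, 0.499, 0.329 and 0.529. Chromosomes 8, 13 and 17 were also below 1 in 5 of 5 libraries, at means of 0.689 ± 0.122, 0.692 ± 0.134 and 0.831 ± 0.189 (SD, n = 5 each). The other 14 chromosomes lay on both sides of 1. Some of these medians rest on few islands. Chromosome 11 had 8, 15, 5, 6 and 5, and chromosome 17 had 7, 24, 2, 5 and 8. Chromosome 8 had 5, 24, 6, 6 and 8, which covered 47.6, 35.4, 65.2, 76.6 and 58.1 Mb. Scores fell with island length, and the part of length in these ratios was not tested. How many chromosomes would lie on 1 side of 1 in all 5 libraries by chance was not computed.

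**Figure D5:**
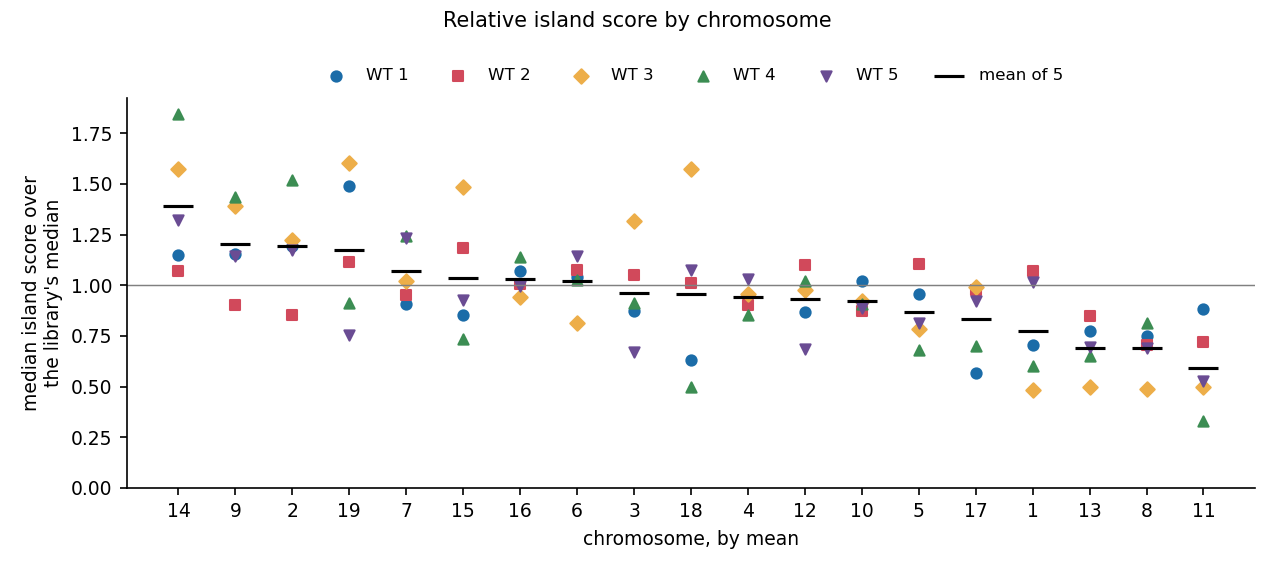
Median island score of each chromosome over the median of its library (y axis) for the 19 autosomes in order of their mean (x axis), 1 symbol per WT lamin A library and a bar for the mean of 5. Chromosome 14 lies above 1 in all 5 libraries, from 1.07 to 1.85, and chromosomes 17, 13, 8 and 11 lie below 1 in all 5.

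Island ends fell at the same places in part. Of the island ends of WT 3, 68.3% lay within 10 kb of an island end in WT 4, and of those of WT 4, 44.5% lay within 10 kb of one in WT 3. Between WT 1, WT 3, WT 4 and WT 5 the shares ran from 28.5% to 68.3%. With WT 2 they ran from 8.27% to 30.1%. WT 3 had 183 islands and WT 2 had 665, and a share of the ends of the longer list is limited by the length of the shorter.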

How the data were processed

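Lamin A binding was profiled in 5 WT cardiac myocyte libraries, and intervals were listed per library on GRCm39, per the submitters' processing notes, which name SICER and DiffBind without roles. Neither the labels nor the lists name the aligner, the control or the calling parameters. The deposited log2 ratio and the deposited score, its 100-fold integer, compare lamin A with control reads. The deposited −log10 p and −log10 adjusted p are capped at 500. No gap under 40.2 kb lies between autosomal intervals of any list, so shorter gaps cannot be seen.

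Islands were kept by length and chromosome, with no filter added to the limit on significance that the deposited lists already had. Spearman's rho, overlaps, N50 and implied reads were computed with Python 3.11.15, numpy 2.4.6, pandas 2.3.3 and scipy 1.17.1, and drawn with matplotlib 3.10.9. Recovery of implied reads was tested on simulated data. Differences of medians between island classes were tested over the 5 libraries with an exact two-sided sign-flip permutation test, with Benjamini-Hochberg adjustment over 2 tests. Alternatives changed the length minimum, the joining of intervals, the chromosomes, the bins, the definition of recurrence and the libraries included. Islands and stretches named by position were the longest, highest and lowest of each list, the longest gaps, those beside the length limit and the 5 longest runs of bins at either end of the ranks. The members and lists were chosen with earlier results of these data known. No gene is named and no sequence is shown, since no annotation or genome of this build was used.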

Additional observations from a re-analysis of the deposited data

Results flagged for a closer look

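In WT 2, 4 of 23 measures stood apart from those of the other 4 libraries by a gap that is large for the range of 5 values, which chance gives in about 1 of 20 such groups. Islands of at least 1 Mb made up 27.1% of its list, and the nearest other library had 58.2%. Gaps of 100 kb to 1 Mb made up 25.1% of its gaps, and the nearest other library had 15.9%. Spearman's rho of −log10 p and recurrence was 0.335, and the nearest other library had 0.583. The islands held 98.4% of the covered autosomal length, and the nearest other library had 99.8%. These 4 measures share the cutting of the WT 2 list into shorter islands and are not independent of each other. WT 2 had the highest median density of implied lamin A reads in its islands, 10.6 per kb, against 9.97 in WT 5, the next. The reason for the shorter islands was not tested.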

How the results depend on the processing

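Of 127 values under an alternative, 121 moved by less than the spread between libraries (1 SD) and 6 by more. Of the 127, 70 left out 1 library. A mean of 5 library values cannot move by 1 SD when 1 of them is dropped, so most of those 70 could not fail. Among the other 57, 51 moved by less and 6 by more. Joining intervals within 100 kb gave a mean of 184.8 islands per library, a mean of the median lengths of 3.30 Mb and of the median gaps of 3356 kb, since that step removes the short gaps. Joining within 10 kb could join none, since no gap between autosomal intervals was under 40.2 kb. With islands of at least 1 Mb alone, chosen after seeing the data, mean rho of score was -0.317 with length, 0.613 with recurrence and -0.798 with control density, and the cause was not tested. Leaving out each library in turn kept the mean median score between 0.127 and 0.148, rho of score and length between -0.520 and -0.451 and rho of score and recurrence between 0.246 and 0.413. Mean rho of score and lamin A density had no stable sign, from -0.134 without WT 4 to 0.127 without WT 1. Mean rho of score and recurrence was 0.222 with chromosomes X and Y added, against 0.369 as reported, and 0.265 at a minimum of 50 kb, where the lowest library had -0.082. Mean rho of score and the smaller flanking gap was -0.0472 without WT 2, against -0.0769, and the mean share of islands at the cap was 0.356% without WT 5, against 0.822%. With 5 libraries no test here can pass 0.05. No paired analysis was possible because only 1 group has lamin A intervals, and the numbers it shares with the IgG and END-seq groups pair nothing in these results. The thin WT 3 library limits its short islands most, with a median counting error of 0.119 at 100 kb to 500 kb.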

Other observations

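The first island of a chromosome started before 3.1 Mb in 3, 3, 8, 3 and 5 of the 19 autosomes of WT 1, WT 2, WT 3, WT 4 and WT 5. In the deposited lists 361 of the 1491 intervals on chromosomes X and Y were at least 100 kb long, and entered only the alternative that added these chromosomes.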
